A study of Sorghum bicolor and Setaria italica and Zea mays with 20 samples.

Results

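The accessible chromatin of *Sorghum bicolor* bundle-sheath strands was compared with that of whole *S. bicolor* leaves, using every DNaseI-hypersensitive site (DHS) listed on the 10 numbered chromosomes. These are 33695 DHSs of bundle sheath and 38336 of whole leaf, together 72031 of the 281868 DHSs in the 7 lists of the series. The bundle-sheath list combines 2 samples and the whole-leaf list 3 samples. All came from 18-d-old seedlings, grown in the same controlled conditions with no cultivar or treatment named in the labels, and collected when the lights had been on for 4 to 6 h. The labels name leaf 3 as the source, whereas the methods name mature leaves at positions 3 and 4. Each sample is a pool of leaves from many plants. Bundle-sheath strands were freed mechanically, by shearing leaves in a blender and filtering, and a whole leaf still contains its own bundle sheath, so the whole-leaf list is not a list of mesophyll. The tissue could not be checked against marker genes, because an annotation of the assembly was not used here and a DHS carries no gene name.

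In a C4 leaf, photosynthesis is divided between mesophyll and bundle sheath. Mesophyll cells fix CO2 into C4 acids, and the bundle sheath around the veins releases CO2 from these acids next to Rubisco. DNaseI cuts DNA where nucleosomes are displaced, so a DHS is a stretch of open chromatin such as an active promoter or enhancer. A protein that sits on the DNA inside a DHS shields a few bases from the enzyme, and such a gap in the cuts is a digital genomic footprint (DGF).

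Each list gives 1 value per DHS, called on reads pooled over replicates. There is therefore no replicate error, no test between tissues was possible, and no p-value is given. Brackets after a percentage hold its 95% Wilson interval, and brackets after a median hold an order-statistic interval. Both cover counting error over listed intervals only, and neighbouring DHSs are not independent. As both tissues are bulk nuclei, a DHS that is open in fewer cells cannot be told apart from one that is less open in every cell.

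Most DHSs of bundle sheath were also DHSs of whole leaf. At an overlap of at least 1 bp, 28205 bundle-sheath DHSs, 83.7% (83.3 to 84.1), touched a whole-leaf DHS, and 28421 whole-leaf DHSs, 74.1% (73.7 to 74.6), touched a bundle-sheath DHS. This left 5490 DHSs found in the bundle-sheath list alone (16.3%) and 9915 found in the whole-leaf list alone (25.9%). Few cases lay near the limit of 1 bp. Of 24799 pairs with 1 DHS in each tissue, only 1 shared 50 bp or less (22 bp), and larger groups were not examined. Only 3 unmatched bundle-sheath DHSs and 3 unmatched whole-leaf DHSs lay within 50 bp of a DHS of the other tissue. A stricter rule lowered the share. When the overlap had to cover at least 50% of both DHSs, 73.5% of bundle-sheath DHSs were matched. The median gap was 2404 bp for unmatched bundle-sheath DHSs and 3525 bp for unmatched whole-leaf DHSs.

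Sharing followed the strength of a DHS, measured as the fold enrichment of cuts over local background. When each list was divided into 10 classes of about equal size by this value, 99.97% of bundle-sheath DHSs in the highest class were matched (99.8 to 99.99), against 56.4% in the lowest class (54.7 to 58.0). In whole leaf the share was 99.8% in the highest class (99.6 to 99.9) and 45.6% in the lowest (44.1 to 47.1). Width differed between these classes as well. The median was 2180.5 bp in the highest and 950 bp in the lowest class of bundle sheath, and 2133 bp and 851 bp in whole leaf. The part of width in the shares was not tested. The strongest DHS with no partner was at the 94.5th percentile of the bundle-sheath list and at the 92.3rd percentile of the whole-leaf list. In bundle sheath it was chr7:37974336-37974637, a 302-bp DHS of 7.08-fold enrichment with 1 DGF, 8628 bp from the nearest whole-leaf DHS. In whole leaf it was chr7:305886-306682, a 797-bp DHS of 7.47-fold enrichment with 3 DGFs, 10311 bp from the nearest bundle-sheath DHS. All positions are in assembly Sbicolor_255_v2.0, counted from 1, and the genes at them were not identified here. Both stand in the highest class of their lists by enrichment, and both are narrower than the median of that class, which was 2180.5 bp in bundle sheath and 2133 bp in whole leaf.

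The shares differed between chromosomes. Bundle-sheath DHSs were matched most often on chromosomes 1 and 3 (86.3% on each) and least often on chromosome 5 (79.3%, 77.9 to 80.6). Whole-leaf DHSs were matched most often on chromosome 5 (80.9%, 79.6 to 82.1) and least often on chromosome 3 (70.9%, 69.6 to 72.2). The share was higher for bundle sheath than for whole leaf on 9 of 10 chromosomes, and chromosome 5 was the exception. List length moved with these shares. Chromosome 5 held 3567 bundle-sheath and 3552 whole-leaf DHSs, a ratio of 1.00, whereas chromosome 3 held 3831 bundle-sheath and 4685 whole-leaf DHSs, a ratio of 0.818. The part of list length in the shares of single chromosomes was not tested.

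**Figure D1:**
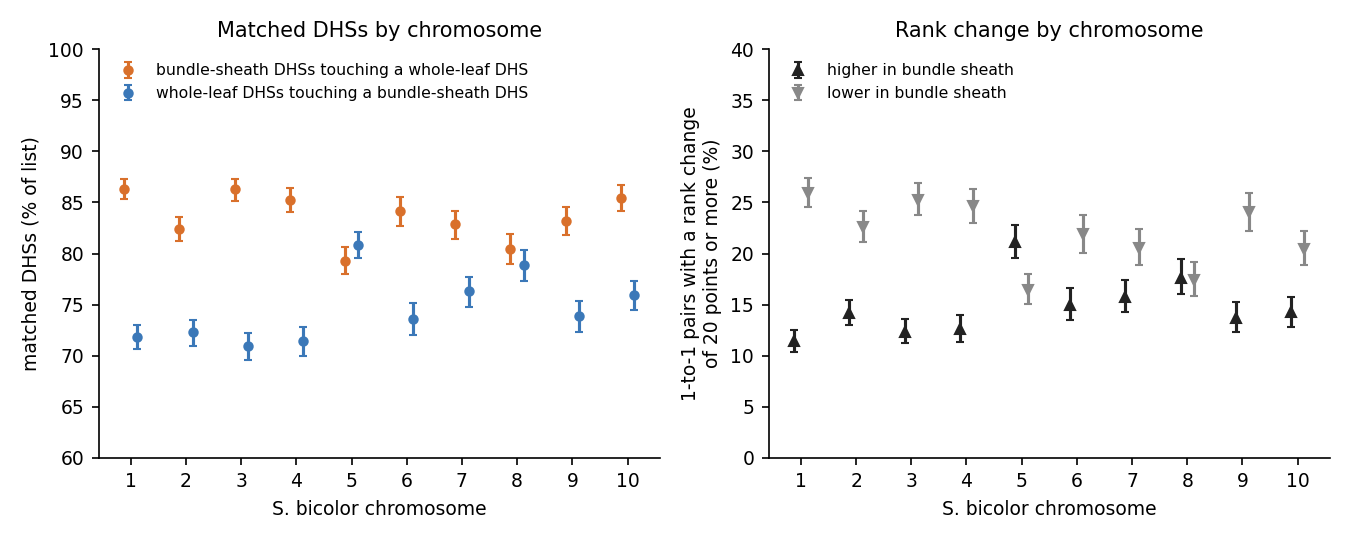
Left, percentage of bundle-sheath DHSs (orange) and of whole-leaf DHSs (blue) that touch a DHS of the other tissue, for each of the 10 numbered chromosomes. Right, percentage of 1-to-1 pairs that rank at least 20 percentile points higher or lower in bundle sheath. Bars are 95% Wilson intervals. On chromosome 5 the order of the 2 tissues and of the 2 directions is the reverse of that on chromosome 1, and chromosome 8 lies between them.

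For all further comparisons a pair is 1 bundle-sheath DHS that touches exactly 1 whole-leaf DHS and is touched by no other. There were 24799 such pairs, 91.7% of all groups of touching DHSs. In 1120 groups 1 bundle-sheath DHS spanned 2307 whole-leaf DHSs, in 924 groups 1 whole-leaf DHS spanned 1897 bundle-sheath DHSs, and 186 groups held several of both. Where a bundle-sheath DHS bridged a gap between whole-leaf DHSs, the median gap was 234 bp and 25.0% of 1187 gaps held a bundle-sheath DGF (22.6 to 27.6). Where a whole-leaf DHS bridged a gap between bundle-sheath DHSs, the median gap was also 234 bp and 19.9% of 973 gaps held a whole-leaf DGF (17.5 to 22.6). At most 4 DHSs of 1 tissue were joined. An example is chr2:23714726-23728713, where 4 bundle-sheath DHSs with 29 DGFs lay over 1 whole-leaf DHS with 21 DGFs. At chr2:16668129-16677382 the arrangement was reversed, and 1 bundle-sheath DHS with 19 DGFs lay over 4 whole-leaf DHSs with 14 DGFs.

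The strongest pairs were closely alike in outline. The pair with the highest mean rank was chr3:18261774-18263098 in bundle sheath (34.2-fold, 5 DGFs) and chr3:18261772-18263089 in whole leaf (34.8-fold, 3 DGFs), with summits 7 bp apart. A summit is the position of highest signal in a DHS. The next pair was chr2:66710137-66710823 in bundle sheath (34.6-fold) and chr2:66710138-66710778 in whole leaf (27.0-fold), with summits 2 bp apart and no DGF in either tissue. Next came chr3:28855579-28856225 in bundle sheath (30.0-fold) and chr3:28855647-28856213 in whole leaf (19.5-fold), with summits 1 bp apart and 1 DGF in each. High enrichment thus did not come with many DGFs in the regions chr2:66710137-66710823 and chr3:28855579-28856225. The pair of highest mean rank, with 5 and 3 DGFs, stood at or above the median of 3 DGFs per paired DHS in both tissues.

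Across all pairs the order of strength was shared in part. The correlation of fold enrichment over the 24799 pairs was 0.66 (Spearman's rho, given as a description, since all pairs come from the same 2 pools of libraries). It ranged from 0.65 on chromosome 2 to 0.69 on chromosome 10. To compare strength without equal depth, each DHS was given its percentile rank by fold enrichment within its own list, and the whole-leaf rank was subtracted from the bundle-sheath rank. The median change was -2.72 points, and the middle 90% of pairs lay between -43.6 and 37.0 points. In bundle sheath 3603 pairs (14.5%) ranked at least 20 points higher and 5529 pairs (22.3%) at least 20 points lower.

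The excess of lower ranks depends on how DHSs are ranked. Ranked by the peak caller's −log10 p-value in place of fold enrichment, 16.5% of pairs were at least 20 points higher in bundle sheath and 12.2% lower, and more pairs were higher on 10 of 10 chromosomes. Ranked by fold enrichment among the pairs alone, 18.6% were higher and 18.6% lower. In this ranking gains and losses of rank cancel over all pairs by construction, so it cannot show a direction for the genome. With the whole-leaf list cut to the length of the bundle-sheath list by leaving out its weakest DHSs, 17.5% were higher and 18.5% lower. No direction is therefore stated for the genome as a whole.

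The order of the chromosomes did not depend on this choice at its ends. Under 3 rankings, chromosome 5 had the highest balance of higher minus lower pairs and chromosome 1 the lowest. These were fold enrichment in the full lists, fold enrichment among the pairs alone, and −log10 p-value in the full lists. The ranking at equal list length was not examined by chromosome. By fold enrichment, 21.1% of pairs on chromosome 5 ranked higher (19.6 to 22.8) and 16.5% lower (15.0 to 18.0), read against 14.5% and 22.3% over all pairs. On chromosome 1 the shares were 11.4% higher (10.4 to 12.5) and 26.0% lower (24.6 to 27.4). Chromosome 8 had 17.7% higher and 17.4% lower, and lower pairs outnumbered higher pairs on the other 8 chromosomes. By −log10 p-value the balance was 9.02 points on chromosome 5 and 0.916 points on chromosome 1.

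Rank change was arranged along the chromosomes. The end of a chromosome was set at the last position that any *S. bicolor* list reaches, and each chromosome was divided into an outer part (the outermost 20% at each end), a middle part (the central 20%) and the stretches between. In the outer part 27.1% of 14878 pairs ranked at least 20 points lower in bundle sheath (26.3 to 27.8). The share was 15.8% of 8781 pairs in the stretches between (15.1 to 16.6) and 10.2% of 1140 pairs in the middle (8.55 to 12.1). Pairs that ranked higher had the opposite gradient, with 12.4% in the outer part, 17.5% between and 18.9% in the middle. The median change was -6.14 points in the outer part, 0.30 between and 1.76 in the middle.

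On single chromosomes the median change was higher in the middle than in the outer part on 10 of 10 chromosomes. The difference was widest on chromosome 1, at 2.23 points in the middle and -12.1 in the outer part. It was narrowest on chromosome 5, at 1.24 points in the middle and -0.14 in the outer part. Pairs that ranked higher did not follow the gradient on chromosome 5, with 22.0% in the outer part and 17.5% in the middle. The middle of chromosome 10 held only 35 pairs, of which 0 ranked at least 20 points lower. By −log10 p-value the median was higher in the middle on 9 of 10 chromosomes, chromosome 5 being the exception. The share of lower pairs was larger in the outer part on 10 of 10 chromosomes under all 3 rankings. Over the genome it was 22.6% outer and 8.51% middle when ranked among the pairs alone, and 13.8% outer and 6.58% middle by −log10 p-value.

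The DHSs with no partner had the same arrangement in whole leaf. Whole-leaf DHSs were matched in 69.1% of cases in the outer part (68.5 to 69.7) and in 85.0% in the middle (83.2 to 86.7). Bundle-sheath DHSs were matched in 84.2% of cases in the outer part (83.7 to 84.7) and in 80.6% in the middle (78.7 to 82.5). In 5% steps along the chromosome, the whole-leaf share was lowest at the ends, 66.3% in the first step and 59.9% in the last, while the bundle-sheath share was 84.9% and 85.7% in these steps. The outer part held 19730 bundle-sheath and 24224 whole-leaf DHSs, and the middle held 1653 bundle-sheath and 1581 whole-leaf DHSs. With both lists at equal length the difference was still there. Bundle-sheath DHSs were then matched in 79.4% (outer) and 73.8% (middle), and whole-leaf DHSs in 73.3% (outer) and 90.3% (middle). Chromosome arms of *S. bicolor* are known to be rich in genes and the regions around centromeres in repeats, and the part of gene or repeat content in the gradient was not tested.

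**Figure D2:**
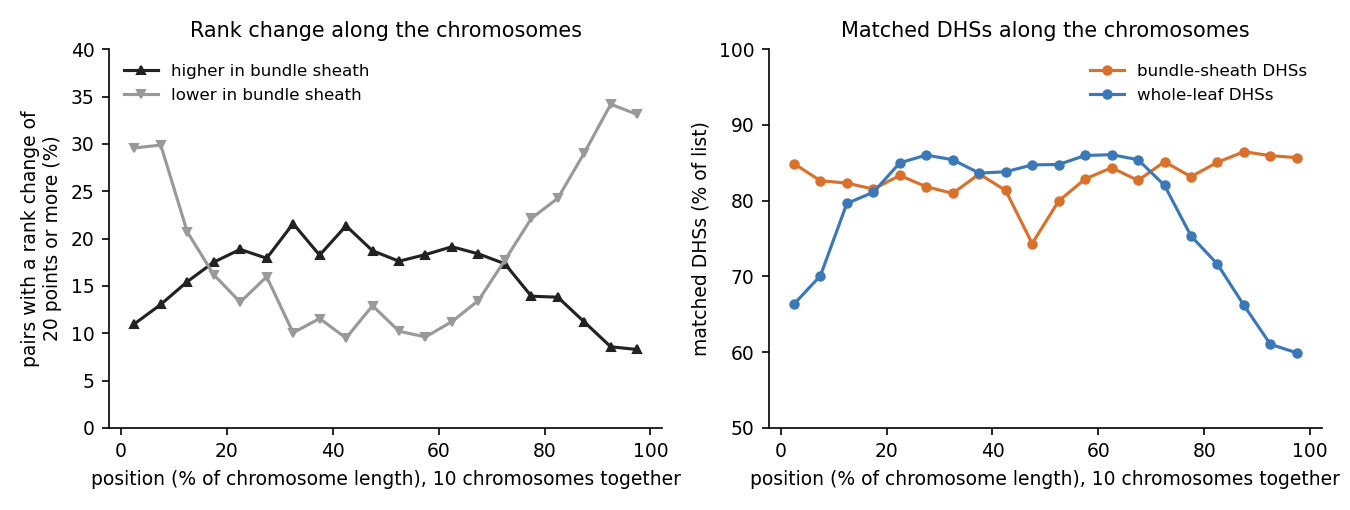
Left, percentage of pairs that rank at least 20 percentile points higher (black) or lower (grey) in bundle sheath, in 5% steps of chromosome length with the 10 chromosomes laid over each other. Right, percentage of bundle-sheath (orange) and whole-leaf (blue) DHSs matched in the other tissue, in the same steps. Unmatched whole-leaf DHSs are most frequent in the outermost step at each end. Lower-ranking pairs are most frequent 1 step further in, at 29.9% and 34.2%, with 29.6% and 33.1% in the outermost steps, and steps near the middle hold as few as 155 pairs.

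For each direction, 3 regions illustrate large rank changes among pairs whose DHSs both lie in the upper part of their lists (above the 50th percentile). The largest gain in bundle sheath was at chr10:11782584-11784253, with 6.77-fold enrichment in bundle sheath and 4.32-fold in whole leaf, a change of 40.6 points. It was followed by chr10:8144614-8146073, with 6.24-fold in bundle sheath and 4.25-fold in whole leaf, and chr5:54560238-54562240, with 6.61-fold in bundle sheath and 4.32-fold in whole leaf. The largest loss was at chr4:10072983-10073722, with 4.14-fold enrichment in bundle sheath and 9.25-fold in whole leaf, a change of -44.2 points. It was followed by chr5:15851425-15852187, with 4.15-fold in bundle sheath and 9.37-fold in whole leaf, and chr8:2506618-2509619, with 4.07-fold in bundle sheath and 7.85-fold in whole leaf. In the order given, the 3 gains had 2, 4 and 5 DGFs in bundle sheath, against 4, 3 and 2 in whole leaf. The 3 losses had 2, 2 and 5 DGFs in bundle sheath, against 3, 7 and 2 in whole leaf. The number of DGFs differed in the direction of the rank in 4 of these 6 regions.

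Matched DHSs were of nearly the same width. The median was 1417 bp in bundle sheath and 1387 bp in whole leaf, and within pairs the median log2 ratio was -0.0051 (-0.0072 to -0.0031), with quartiles at -0.13 and 0.14. Widths correlated at 0.89 over the 24799 pairs (Spearman's rho, as a description). In bundle sheath 1992 pairs (8.03%) were at least 1.5-fold wider and 1662 (6.7%) at least 1.5-fold narrower. Wider pairs outnumbered narrower pairs on 8 of 10 chromosomes, the exceptions being chromosomes 2 and 3. The highest share of wider pairs was 8.94% on chromosome 5 (7.87 to 10.1) and the lowest 6.78% on chromosome 3 (5.93 to 7.75).

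The edges of a DHS are the ends of the stretch that the peak caller reported, and the part of read depth in their positions was not tested. The left edge of the bundle-sheath DHS lay a median of 51 bp from that of its whole-leaf partner and the right edge 46 bp, and 49.6% of left and 52.5% of right edges lay within 50 bp. The bundle-sheath DHS was set in at both edges in 7431 pairs, 30.0% (29.4 to 30.5), and reached further out at both in 5301 pairs, 21.4% (20.9 to 21.9). In 24.5% of pairs the bundle-sheath DHS was displaced to the right, in 21.8% to the left, and in 2.42% at least 1 edge was equal. Both edges were equal in 6 pairs. Narrowing at both edges was more frequent than widening at both on 10 of 10 chromosomes. Much of this difference rested on small steps, since with edges that moved by at least 50 bp the shares were 7.26% in and 6.32% out. Long extensions went the other way. The bundle-sheath DHS reached over 500 bp further out on the left in 5.52% of pairs and on the right in 5.81%, and stopped over 500 bp short in 3.96% on the left and 3.67% on the right. In total the paired DHSs covered 43978 kb in bundle sheath and 42846 kb in whole leaf.

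**Figure D3:**
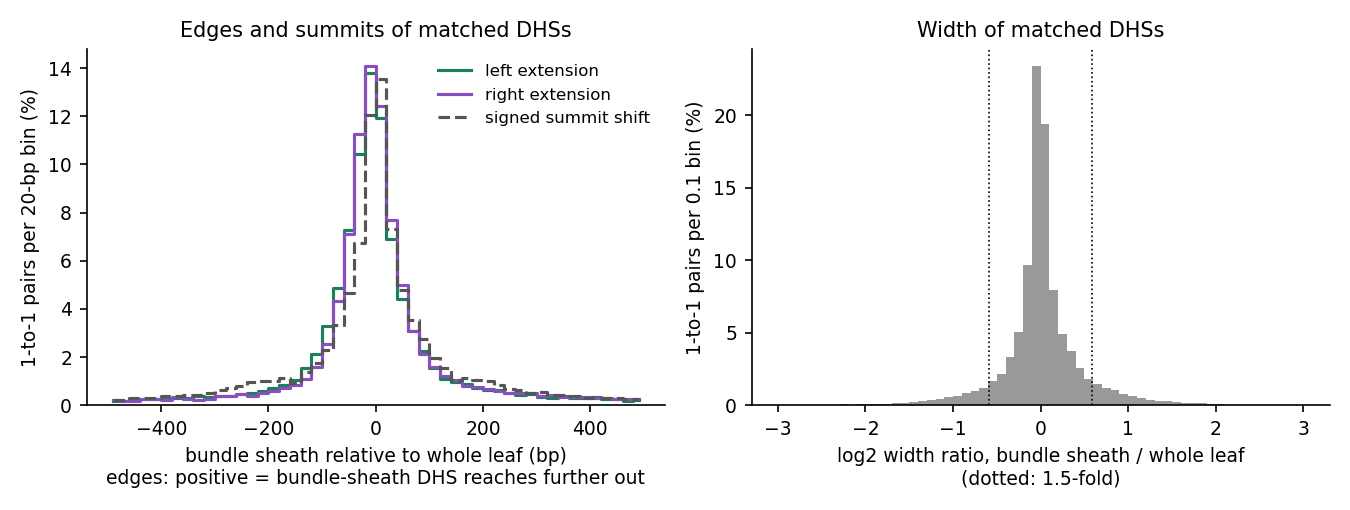
Left, distribution over 24799 pairs of how far the left and the right edge of the bundle-sheath DHS reach beyond the whole-leaf edge, and of the signed distance from the whole-leaf summit to the bundle-sheath summit, in 20-bp bins up to 500 bp either way. Right, distribution of the log2 width ratio, with dotted lines at a 1.5-fold difference. All 4 distributions peak near 0, edge positions most often lie a few bases further in within bundle sheath (medians of -8 and -4 bp), and the width ratio has long tails to both sides.

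Among pairs with both DHSs above the 50th percentile of enrichment, 3 regions in each direction had the largest width ratios. At chr7:55401625-55407396 a bundle-sheath DHS of 5772 bp with 14 DGFs stood over a whole-leaf DHS of 562 bp with 1 DGF (chr7:55406876-55407437), a ratio of 10.3, with the summits only 66 bp apart. The extension of 5251 bp lay on the left side alone. At chr10:54054200-54056409 the bundle-sheath DHS was 2210 bp wide and the whole-leaf DHS 318 bp, and at chr3:14169150-14172488 they were 3339 bp and 536 bp wide. At chr5:42949155-42949396 the bundle-sheath DHS was 242 bp wide with 0 DGFs, and its whole-leaf partner (chr5:42948548-42950748) was 2201 bp wide with 3 DGFs, with summits 2 bp apart. At chr1:9404324-9405105 the widths were 782 bp in bundle sheath and 5444 bp in whole leaf, and at chr9:6542989-6543927 they were 939 bp and 6477 bp. In 5 of these 6 regions the summit stayed within 66 bp although an edge moved by over 1 kb, and only the region on chromosome 1 had distant summits (3980 bp).

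Summits of paired DHSs lay a median of 62 bp apart (60 to 64), with quartiles at 19 and 210 bp. They lay within 50 bp of each other in 45.1% of pairs (44.5 to 45.7), at the same base in 341 pairs (1.38%) and over 500 bp apart in 2771 pairs (11.2%). The signed median was 0 bp, so that shifts to the left and to the right balanced. The median ranged from 57 bp on chromosome 4 (52 to 60) to 71 bp on chromosome 8 (64 to 78). It was 58 bp in the outer part of the chromosomes (56 to 60) and 71 bp in the middle (65 to 80). By rank in bundle sheath it was 55 bp in the highest of 5 classes and 66 bp in the lowest, with no steady order between them (64, 67 and 61 bp). By rank in whole leaf it was 48 bp in the highest class and 83 bp in the lowest. The largest distance among pairs in the upper part of both lists was 14125 bp, in a DHS of almost equal outline (chr3:48309499-48324323 in bundle sheath, 14825 bp wide with 22 DGFs, and 14878 bp wide with 24 DGFs in whole leaf). The same held at chr10:23918236-23927154, 8919 bp wide in bundle sheath and 9046 bp in whole leaf with summits 8124 bp apart, and at chr3:23660143-23669226, 9084 bp wide in bundle sheath and 8554 bp in whole leaf with summits 6540 bp apart. In these 3 long DHSs the highest point lay near opposite ends in the 2 tissues or was displaced by most of the width.

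Width and rank moved together to a limited degree. The correlation between log2 width ratio and rank change was 0.20 over the 24799 pairs (Spearman's rho, as a description; both come from the same signal of the same pools). Of pairs at least 1.5-fold wider in bundle sheath, 25.7% ranked at least 20 points higher there (23.8 to 27.6) and 16.2% lower (14.6 to 17.8), against 14.5% and 22.3% over all pairs. Of pairs at least 1.5-fold narrower, 6.98% ranked higher (5.85 to 8.31) and 38.6% lower (36.3 to 40.9). Among pairs that ranked higher, both edges lay further out in 34.9%, against 21.4% over all pairs. Among pairs that ranked lower, both edges lay further in for 39.0%, against 30.0% over all pairs.

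Footprints are the second readout of these data. Across the numbered chromosomes 126001 DGFs were listed for bundle sheath and 139429 for whole leaf, with lengths of 11 to 25 bp and a median length of 23 bp in each. Each carries a Wellington score, which compares cuts beside the footprint with cuts inside it strand by strand. A more negative score is stronger evidence of a footprint. The median score was -13.1 in bundle sheath and -16.2 in whole leaf. The bundle-sheath list pools 2 samples and the whole-leaf list 3, and the part of read depth in the scores was not tested. Paired DHSs held 94862 bundle-sheath and 93034 whole-leaf DGFs, with a median of 3 per DHS in each tissue. This was 2.16 DGFs per kb in bundle sheath and 2.17 in whole leaf, a ratio of 0.993 (0.984 to 1.00, a counting interval). The ratio ranged from 0.968 on chromosome 5 (0.939 to 0.997) to 1.01 on chromosome 8 (0.979 to 1.05), and it was above 1 on 5 chromosomes and below 1 on the other 5. With whole-leaf DGFs cut to the number of bundle-sheath DGFs by leaving out the weakest scores, it was 1.09 (1.08 to 1.10). The bundle-sheath DHS held more DGFs in 9828 pairs (39.6%), the whole-leaf DHS in 9731 (39.2%), and the numbers were equal in 21.1%. No DGF was listed in the bundle-sheath DHS of 5.68% of pairs, in the whole-leaf DHS of 4.34%, and in either DHS of 219 pairs (0.883%).

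Nearly equal density in the full lists did not mean equal positions. In the stretch that both DHSs of a pair share, density was 2.31 DGFs per kb in bundle sheath and 2.30 in whole leaf, a ratio of 1.00 (0.992 to 1.01). In that stretch, 25.5% of bundle-sheath DGFs (25.2 to 25.7) touched a whole-leaf DGF and 25.5% of whole-leaf DGFs (25.2 to 25.8) touched a bundle-sheath DGF. The share was higher where summits coincided. With summits at most 10 bp apart, 29.3% of bundle-sheath DGFs (28.5 to 30.1) touched a whole-leaf DGF, and with summits over 500 bp apart 22.3% did (21.6 to 22.9). The classes between gave 27.4%, 25.0% and 23.4% in order of distance. DHS width moved with summit distance, at a bundle-sheath median of 1147 bp in the closest class and 2469 bp in the farthest, while whole-leaf density in the shared stretch was 2.36 and 2.28 DGFs per kb. The part of width in this order was not tested, and the share of DGFs that would touch at random positions was not computed. Pairs that ranked at least 20 points higher in bundle sheath had 21.3% of bundle-sheath DGFs in common (20.5 to 22.1), and pairs that ranked lower had 28.1% (27.5 to 28.7). The median Wellington score of whole-leaf DGFs was -12.7 in the higher-ranking pairs and -18.9 in the lower-ranking pairs, and the part of score in these shares was not tested.

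DGFs were concentrated at summits. Within the shared stretch, bundle-sheath DGFs reached 4.40 per kb between 50 and 100 bp from the bundle-sheath summit, with 3.99 per kb in the first 50 bp, and declined to 1.59 per kb between 950 and 1000 bp. Whole-leaf DGFs stood at 4.83 per kb in the first 50 bp from the whole-leaf summit and at 1.44 per kb between 950 and 1000 bp. Within 100 bp, each tissue's DGFs were less dense around the summit of the other tissue than around its own. Bundle-sheath DGFs had 3.82 per kb in the first 50 bp from the whole-leaf summit and 3.84 in the next 50 bp, and whole-leaf DGFs had 4.43 and 4.14 per kb in these bins from the bundle-sheath summit. Bundle-sheath density was thus highest beside its own summit and not on it, whereas the profile of whole leaf had no such dip. Summits and DGFs of a tissue come from the same cuts. The part of this in the density around a tissue's own summit was not tested.

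**Figure D4:**
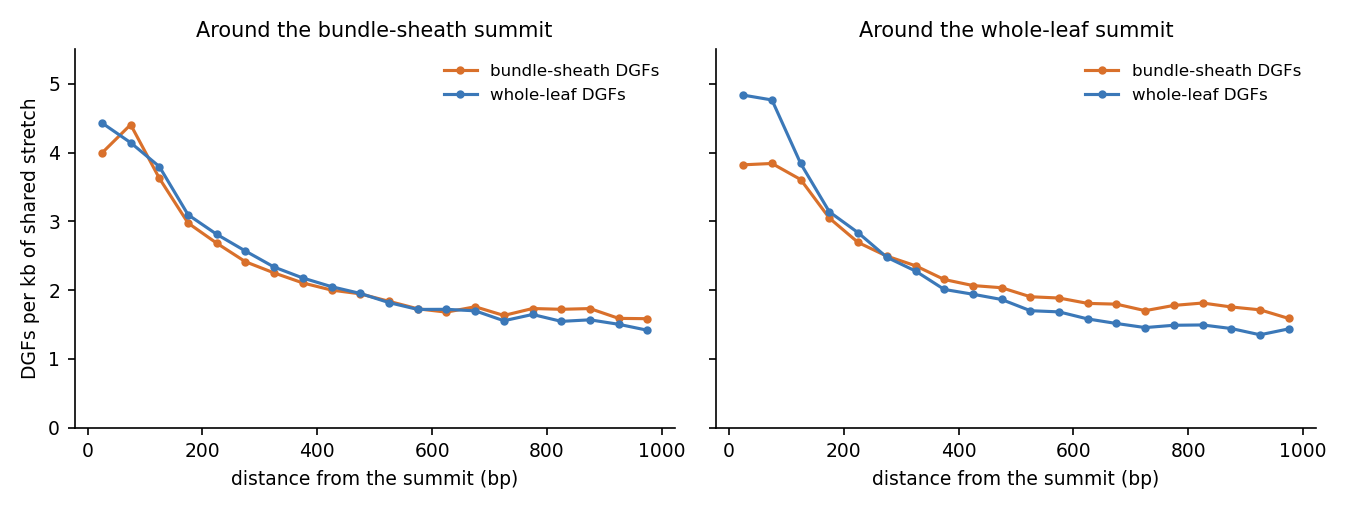
Density of bundle-sheath DGFs (orange) and whole-leaf DGFs (blue), in DGFs per kb of the stretch shared by both DHSs of a pair, in 50-bp bins of distance from the bundle-sheath summit (left) and from the whole-leaf summit (right). Density is highest within 100 bp of a summit, between 3.82 and 4.83 per kb, and falls below 2 per kb beyond 500 bp in both tissues.

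Footprint density in the shared stretch followed width. In pairs at least 1.5-fold wider in bundle sheath, the shared stretch held 2.81 bundle-sheath and 2.33 whole-leaf DGFs per kb, a ratio of 1.21 (1.16 to 1.25). In pairs at least 1.5-fold narrower it held 2.41 bundle-sheath and 3.14 whole-leaf DGFs per kb, a ratio of 0.768 (0.736 to 0.802). In the remaining 21145 pairs the densities were 2.27 and 2.26, a ratio of 1.00 (0.992 to 1.01). Over whole DHSs the order was reversed. Wider pairs then had 2.02 bundle-sheath and 2.30 whole-leaf DGFs per kb (ratio 0.880, 0.852 to 0.910). Narrower pairs had 2.38 and 2.09 (ratio 1.14, 1.09 to 1.18). The additional width carried footprints as well. The 2488 kb by which wider bundle-sheath DHSs reached past their partners held 1.28 bundle-sheath DGFs per kb, and the 1647 kb of whole-leaf DHSs outside narrower bundle-sheath partners held 1.12 whole-leaf DGFs per kb. The bundle-sheath DHS had more DGFs in 70.9% of wider pairs (68.8 to 72.8) and the whole-leaf DHS had more in 69.3% of narrower pairs (67.0 to 71.4), against 39.6% and 39.2% over all pairs. DGFs were called only inside DHSs of the same tissue, and the shared stretch of such a pair is nearly the whole of the narrower DHS, edges included, but an inner part of the wider one. The part of this difference in the densities was not tested.

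**Figure D5:**
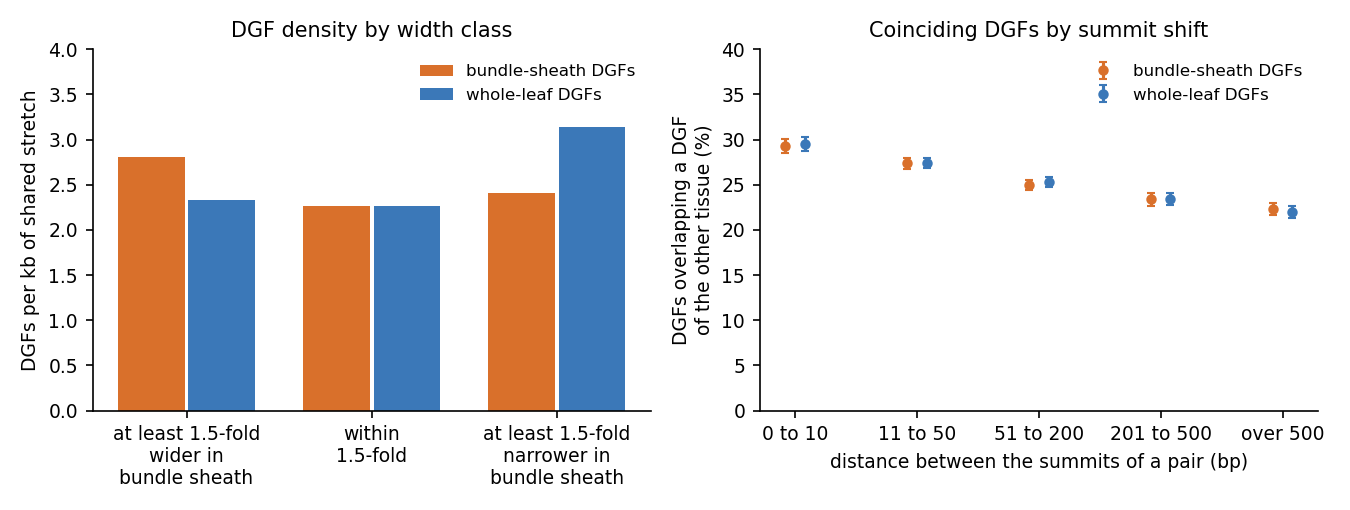
Left, DGFs per kb of the stretch shared by both DHSs, for bundle-sheath (orange) and whole-leaf (blue) DGFs in 1992 pairs at least 1.5-fold wider in bundle sheath, 21145 pairs within 1.5-fold and 1662 pairs at least 1.5-fold narrower. Right, percentage of DGFs in the shared stretch that touch a DGF of the other tissue, by the distance between the summits, with 95% Wilson intervals. In the shared stretch the tissue with the wider DHS has the higher density (2.81 and 2.33, 2.41 and 3.14 per kb). Over whole DHSs, not drawn here, it has the lower density. Coinciding DGFs are at 29.3% in the closest and 22.3% in the farthest class for bundle sheath.

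Single regions showed larger differences in DGF number. At chr3:271679-278875 the bundle-sheath DHS of 7197 bp held 19 DGFs and the whole-leaf DHS of 3311 bp held 4. At chr8:51567040-51576639 widths were similar, 9600 bp in bundle sheath and 8684 bp in whole leaf, and DGFs numbered 26 and 11. At chr2:20834610-20845771 the outline was almost the same, 11162 bp in bundle sheath and 11188 bp in whole leaf, with 24 and 11 DGFs. In the other direction, chr3:60747049-60748179 held 0 DGFs in 1131 bp of bundle-sheath DHS, against 12 in a whole-leaf DHS of 2308 bp. At chr4:50998964-51000570 there were 1 bundle-sheath and 13 whole-leaf DGFs, and at chr1:5220023-5223366 there were 4 and 15. In these last 3 regions the bundle-sheath DHS was also the narrower, at 1607 bp against 3254 bp on chromosome 4 and 3344 bp against 5471 bp on chromosome 1. The chromosome 8 and chromosome 2 regions thus differ in footprints at nearly equal width, and the other 4 differ in both.

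The same measures in the other C4 grasses place these values. Each species has 1 list per tissue, so the differences between species were not tested. Bundle-sheath DHSs were matched in 77.6% in *Setaria italica* and 72.6% in *Zea mays*, below the 83.7% of *S. bicolor*, and whole-leaf DHSs in 79.4% and 80.8%, above its 74.1%. List lengths differed as well. Bundle-sheath and whole-leaf DHSs numbered 38989 and 40003 in *S. italica*, 48547 and 43539 in *Z. mays*, and 33695 and 38336 in *S. bicolor*. At equal list length the bundle-sheath share of *S. bicolor* was 78.3%. The part of list length in the species shares was not tested. Both edges lay further out in bundle sheath in 48.5% of 27175 *S. italica* pairs and 25.5% of 31742 *Z. mays* pairs, against 21.4% in *S. bicolor*. The median log2 width ratio was 0.17 in *S. italica* and 0.0065 in *Z. mays*. Summits lay a median of 47 bp apart in *S. italica* and 101 bp in *Z. mays*. DGFs per kb of paired DHS were 2.67 in bundle sheath and 2.47 in whole leaf of *S. italica* (ratio 1.08), and 1.75 and 0.863 in *Z. mays* (ratio 2.02). The paper reports that DGF detection in maize fell short of saturation and that a maize library had low complexity. No DGF was listed in the whole-leaf DHS of 38.5% of *Z. mays* pairs and in the bundle-sheath DHS of 16.3%. In *S. bicolor* these shares were 4.34% and 5.68%. The part of DGF detection in the *Z. mays* ratio was not tested.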

How the data were processed

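DNaseI-seq reads were mapped by the authors with Bowtie2 and filtered with SAMtools, and DHSs were called with MACS2 and the irreproducible discovery rate (versions not given in the sources used here). The deposited DHS lists, pooled over replicates, give for each DHS the ratio of its signal to local background (fold enrichment), a −log10 p-value, a score and a summit position, and a −log10 q-value that was not used. The deposited DGF lists give the authors' Wellington score. Read depth is not given in the lists and was not used, so the precision stated is that of counts of intervals. Lists of enriched DGFs from the authors' own comparison hold positions only and were not used, nor were lists of *Brachypodium distachyon* or deproteinized DNA.

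From these lists, overlaps (at least 1 bp), pairs, percentile ranks (ties averaged) and DGF densities were computed with Python 3.11.15, NumPy 2.4.6, pandas 2.3.3, SciPy 1.17.1 and matplotlib 3.10.9. The matching, edge, width, summit and DGF counting steps were tested on the whole-leaf list with known changes made to it. A DGF was counted in each DHS that it touches, in a shared stretch when wholly inside, and otherwise in the DHS's stretch outside it. Ratio intervals come from the Wilson interval of the bundle-sheath share of DGFs. No test between tissues was run, since each has 1 list. The members, lists and measures were chosen with earlier results of these data known. Named regions are the 3 pairs of highest mean rank and, among pairs with both DHSs above the 50th percentile, the first 3 for width ratio, rank change and DGF difference in each direction and for summit shift, with the group of most touching DHSs and the strongest unmatched DHS of each list. Alternatives covered overlap, sequences, list length, pairing, ranking column, thresholds and DGF strength. Of columns of other samples, 0 were left out. No genome of the lists' assembly was used here, so sequences and genes are not shown.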

Additional observations from a re-analysis of the deposited data

How the results depend on the processing

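Of 27 alternatives, 7 left a value within its counting interval and 20 moved it. Each share was judged on its own, and the excess of lower over higher ranks (22.3% and 14.5%) turned round under ranking by −log10 p-value (12.2% and 16.5%). The cause of the changes was not tested. Matched bundle-sheath DHSs were 73.5% at a reciprocal overlap of 50% and 78.3% at equal list length, against 83.7%. The median log2 width ratio was -0.0098 with the longest overlap of each bundle-sheath DHS. Both edges were further out in 6.32% of pairs when steps under 50 bp were not counted. The summit shift was 67 bp at reciprocal overlap, 53 bp between midpoints and 55 bp in the upper part of both lists, against 62 bp. Pairs ranking higher in bundle sheath were 16.5% by −log10 p-value, 18.6% among pairs only and 25.0% at 10 points, and pairs ranking lower 12.2%, 18.6% and 36.0%. The DGF ratio was 1.09 at equal DGF numbers.

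The following were chosen after seeing the data. At equal list length 17.5% ranked higher and 18.5% lower. The outer share of lower pairs exceeded the middle share by 16.9 points, by 14.1 among pairs only and by 7.20 by −log10 p-value. At equal DGF numbers the DGF ratio in the shared stretch was 1.41 in wider and 0.832 in narrower pairs, against 1.21 and 0.768.

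No paired analysis was possible because the replicates were pooled before deposit, and leaving out each replicate could not be run for the same reason. The lists carry no read depth, and 49.8% of bundle-sheath and 41.0% of whole-leaf DHSs share their fold enrichment with another DHS, so rank steps are coarse among weak DHSs.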
